A study of Mus musculus with 20 samples.

Results

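The regions described here are the TFIIIC peaks on the unplaced sequences of the mouse genome build mm9, taken as every peak of the 4 TFIIIC lists whose sequence name ends in _random, without X_random and Y_random. They were 548 and 514 peaks in the Rb1L/L libraries, of 294135 and 301874 peaks in all, and 463 and 471 peaks in the WT libraries, of 200350 and 239960. They lay on 10 sequences and merged, where peaks of different libraries overlapped by at least 1 bp, into 733 regions of 438722 in the whole set. The cells were C57BL/6 mouse embryonic fibroblasts from E13.5 embryos, cycling asynchronously and harvested at passage 4, and were either Rb1L/L (2 libraries) or wild type (WT, 2 libraries). Chromatin was fixed with formaldehyde alone and immunoprecipitated with an antibody to TFIIIC-220, the largest subunit of the complex, and each TFIIIC library has an input of its own in the labels. In published use, the L allele of Rb1 changes the cleft of the retinoblastoma protein that binds LXCXE motifs. The labels do not say whether the 2 libraries of a genotype came from separate embryos or cultures, so a p-value speaks of the spread between 2 libraries only, and that spread may be of technical origin.

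TFIIIC is a multisubunit factor that recognises the A and B boxes inside tRNA genes and the short interspersed repeats derived from them, and that places TFIIIB, which in turn recruits RNA polymerase III. It also occupies sites without the polymerase and has been tied to condensin and to genome folding, and the retinoblastoma protein is a known repressor of polymerase III transcription. An unplaced sequence is a stretch of assembled DNA without a position: 1_random to 17_random are assigned to the chromosome of their number, and Un_random to none. Such sequences are often repeats or recent duplications, where a read can match several places. The sources used here do not state how the authors treated such reads, and the files name no gene or repeat on these sequences, so the regions are given by position alone.

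The libraries differed on the sex chromosomes in an order that the genotypes do not set. Y_random held 744 and 185 peaks in Rb1L/L replicates 1 and 2, against 2093 and 148 in WT replicates 1 and 2, and the X held 6537 and 10014 peaks in Rb1L/L, against 2456 and 8291 in WT. Both replicate 1 libraries were thus high on Y_random and both replicate 2 libraries high on the X. Peaks were called in each library by itself, and the sources used here give no read numbers, so a list can be longer because its library was deeper.

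Un_random carried most of the unplaced peaks, with 303 and 276 in Rb1L/L and 295 and 270 in WT cells, which is 53.7% to 63.7% of the unplaced peaks of a library. Next came 1_random with 89 and 87 peaks in Rb1L/L and 54 and 69 in WT, and 8_random with 59 and 58 in Rb1L/L and 38 and 49 in WT. On both of these sequences each Rb1L/L library held more peaks than each WT library. The same order held on 9_random (24 and 23 in Rb1L/L, 15 and 21 in WT), on 17_random (24 and 20 in Rb1L/L, 14 and 18 in WT), on 13_random (14 and 15 in Rb1L/L, 9 and 12 in WT) and on 7_random (15 and 16 in Rb1L/L, 14 and 11 in WT). The genotypes overlapped on 4_random (13 and 14 in Rb1L/L, 12 and 17 in WT), on 5_random (7 and 5 in Rb1L/L, 11 and 3 in WT) and on Un_random. The smallest sequence, 3_random, held no peak in either Rb1L/L library and 1 peak in each WT library, at different positions.

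Over the 10 sequences Rb1L/L libraries held 531 ± 24.0 peaks and WT libraries 467 ± 5.66 (SD, n = 2 each), a log2 ratio of 0.18. Both Rb1L/L libraries were above both WT libraries. The two-sided exact permutation test gave p = 0.33, the smallest value that 2 libraries against 2 allow. When each list was cut to its 200350 top-scoring peaks, the ratio changed sign, to -0.08 (exact permutation p = 0.667).

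The whole lists were longer in Rb1L/L cells too, so the unplaced peaks were also set against the list they came from. Their share was 1.86 and 1.70 per 1000 peaks in Rb1L/L and 2.31 and 1.96 per 1000 in WT, with no overlap of the genotypes and the order now turned round. The log2 difference was -0.26 (exact permutation p = 0.33, again the smallest possible). Most of it lay on Un_random, since the log2 difference of the sequences with a chromosome number was -0.05.

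**Figure D1:**
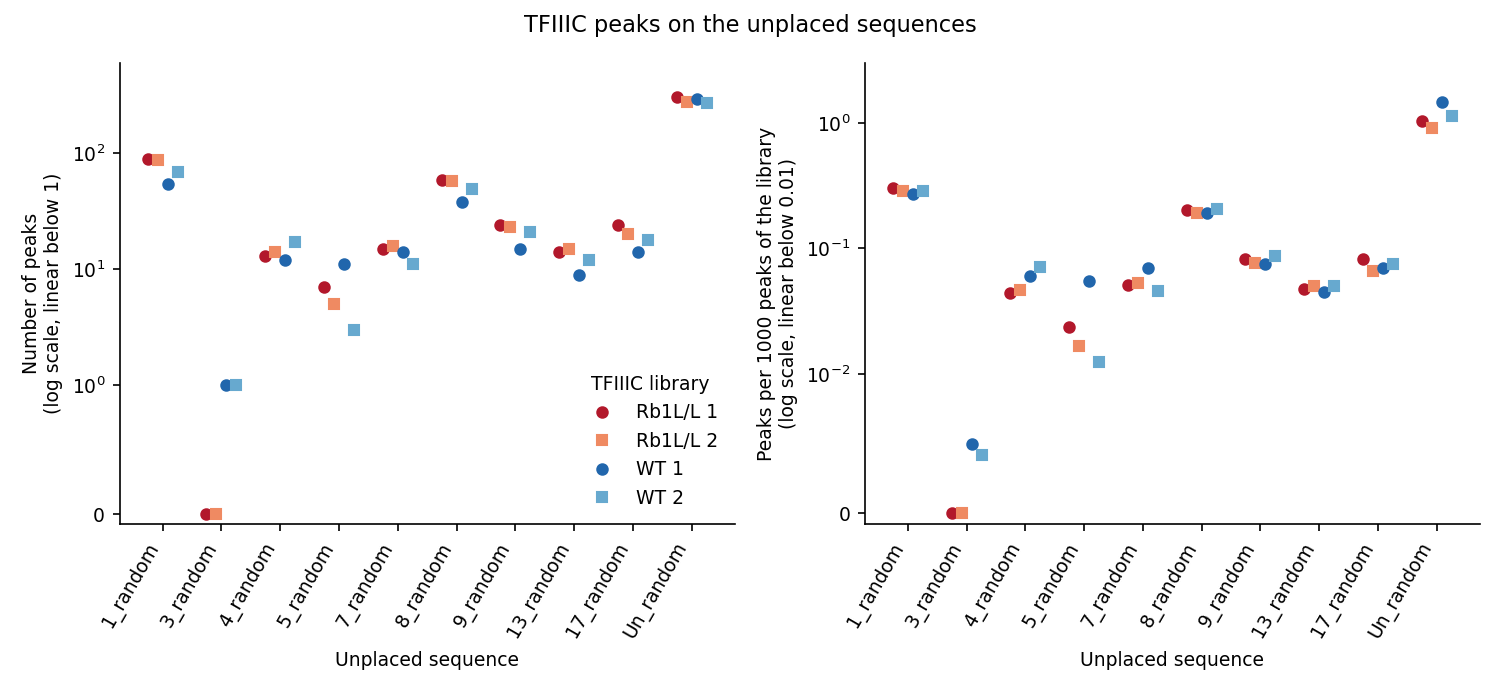
TFIIIC peaks on each unplaced sequence in the 4 libraries, as the number of peaks (left) and as peaks per 1000 peaks of the same library (right); each point is 1 library, and the vertical axes are logarithmic except near 0. Un_random lies above every other sequence, with 270 to 303 peaks a library, and on the right panel the points of most sequences fall together.

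Shares of single sequences were compared by limma on the log2 share per 1000 peaks, fitted over 2650 features, which were 1 Mb windows of the placed chromosomes, X_random and Y_random and each other unplaced sequence whole. None of the features passed a Benjamini-Hochberg adjusted p of 0.05 (0% called), and 257 had an unadjusted p under 0.05. Among the 9 unplaced sequences with enough peaks to be tested, 1 was under 0.05 before adjustment, Un_random, with shares of 1.03 and 0.914 per 1000 in Rb1L/L and 1.47 and 1.13 per 1000 in WT cells. Its log2 difference was -0.41 ± 0.14 (SE; limma adjusted p = 0.479). The call depended on the WT libraries. With WT replicate 2 left out, so that WT replicate 1 alone stood for WT and was assumed to vary like the Rb1L/L libraries, the difference was -0.60 with a limma adjusted p of 0.00477, and 277 of 2652 features passed. With WT replicate 1 left out it was -0.21, and Un_random was not called. The other 8 sequences had log2 differences between -0.52, on 4_random, and 0.08, on 1_random, and limma adjusted p-values of 0.748 or more. The standard error was 0.09 on 1_random and 0.11 on 8_random. It was 0.26 on 9_random, 0.30 on 17_random, 0.42 on 4_random, 0.45 on 7_random and 0.49 on 13_random. On 5_random, the sequence with the fewest peaks tested, it was 1.53. The difference on Un_random was not called with a standard error of 0.14. A difference of that size was therefore not detectable on the sequences with a larger standard error. Whether it would have been called on 1_random or 8_random was not tested, so the lack of a call there does not show equal shares.

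Merging the 4 lists showed where the same places were found again. A peak in all 4 libraries was present in 234 of the 733 unplaced regions, or 31.9% (95% exact Clopper-Pearson interval 28.6% to 35.4%), against 17.8% of all regions of the genome. Un_random reached 39.7% (153 of 385 regions), and the sequences with a chromosome number 23.3% (81 of 348), against 17.9% on the placed autosomes. Among the numbered sequences 8_random had the highest share, with 26 of 65 regions in all 4 libraries, and 1_random had 24 of 111. Intervals and limits of this kind cover counting error only.

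Regions that followed genotype were fewer. Both Rb1L/L libraries and no WT library had a peak in 49 unplaced regions, or 6.68% of them, against a background of 9.37%. Of these, 19 lay on Un_random (4.94% of its regions) and 30 on the numbered sequences (8.62%, against 9.49% on the placed autosomes), 14 of the 30 on 1_random. Both WT libraries and no Rb1L/L library had a peak in 12 regions, or 1.64%, against a background of 1.61%, 6 of them on Un_random. The share for Rb1L/L was therefore below that of the genome and the share for WT near it. With each list cut to equal length, 33 of 652 unplaced regions were of both Rb1L/L libraries alone and 24 of both WT libraries alone. The shares over all regions of the genome at that length are not given here, so these counts have no background.

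The replicate numbers split Un_random as well. Rb1L/L replicate 1 and WT replicate 1 alone shared 25 of its regions, or 6.49%, against a background of 2.73%. Rb1L/L replicate 2 and WT replicate 2 alone shared 11, or 2.86%, against a background of 4.14%. On Y_random the replicate 1 libraries alone shared 436 of 2231 regions (19.5%), and on the numbered unplaced sequences 5 of 348 (1.44%).

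**Figure D2:**
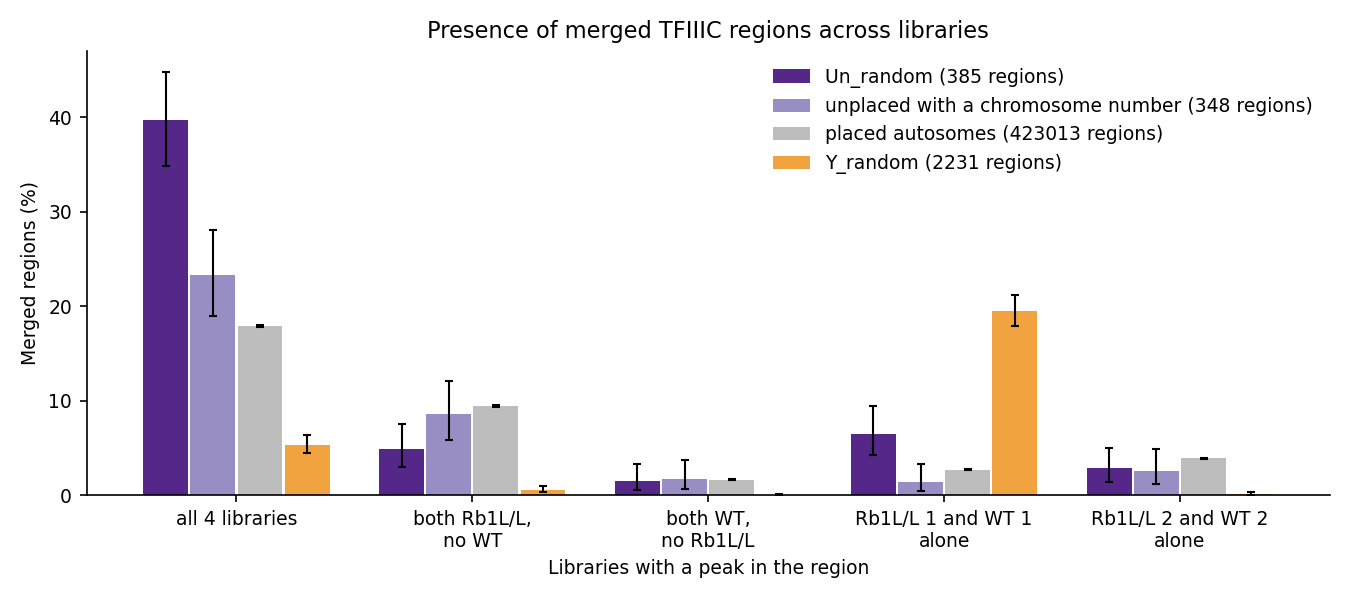
Share of merged regions by the libraries with a peak, for Un_random, the unplaced sequences with a chromosome number, the placed autosomes and Y_random; error bars are 95% exact binomial intervals over regions. Un_random stands highest for regions of all 4 libraries (39.7%) and, behind Y_random, for regions of the replicate 1 libraries alone (6.49%).

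The 8 unplaced regions highest by their lowest score over the 4 libraries lay on Un_random, 8_random and 9_random. The score is the authors' own for each peak, which this peak caller writes as -10 times the log10 of a p-value; most values tie at 3100 at the top, so it ranks peaks within a list. At the head was Un_random:5580694-5585576, with scores of 3100 and 3100 in Rb1L/L and 3165 and 3100 in WT cells. All 4 libraries stood at 3100 in 8_random:674471-686387, 8_random:815373-823645, Un_random:5087043-5093071 and 9_random:241499-243856. The narrowest of the 8 was Un_random:3658243-3659152, at 910 bp, with 2663 and 3155 in Rb1L/L and 3107 and 3100 in WT. The other two were Un_random:5585700-5594639, with 3100 and 3100 in Rb1L/L and 2707 and 3100 in WT, and Un_random:1751672-1753708, with 2944 and 3100 in Rb1L/L and 2417 and 3100 in WT. They were chosen by their lowest score, so a place near or at the top of every list in both genotypes follows from the choice.

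The regions of both Rb1L/L libraries and no WT library reached lower scores. The highest was 8_random:256886-259562, with scores of 1423 and 1307. It was followed by Un_random:3333181-3334570, with 676 and 669, Un_random:1161813-1162909, with 522 and 1063, 1_random:53993-54998, with 526 and 510, and Un_random:2476610-2478512, with 451 and 626. The last of these lies inside the evenly spaced run described below, where 52 of 66 regions had a peak in all 4 libraries. The median of the lower of the 2 scores over the 49 regions was 203, against 167 over the 40150 regions of this kind on the placed autosomes.

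For WT the highest was Un_random:5813047-5813972, with scores of 455 and 1314 in the WT libraries. Next were Un_random:2750845-2751628, with 442 and 431, 17_random:374925-375930, with 224 and 327, 8_random:575275-575836, with 217 and 343, and 1_random:341740-343069, with 248 and 209. The median lower score of the 12 was 154, against 142 over the 7027 regions of this kind on the placed autosomes. A region that is missing from a list had no peak over the authors' threshold there, which does not show that TFIIIC was absent.

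Within each list the unplaced peaks ranked above the peaks of the placed autosomes. The median unplaced peak stood at the 65.7th and 65.9th percentile of the scores in Rb1L/L lists and the 68.4th and 69.7th in WT lists, against 49.3 to 49.9 for the placed autosomes. The difference was 17.8 ± 2.02 percentile points (SD, n = 4 libraries; two-sided exact sign-flip permutation test p = 0.125, the smallest that 4 libraries allow), with the same direction in 4 of 4 libraries. It was 25.3 ± 1.18 points on Un_random and 9.51 ± 4.17 on the numbered sequences, also with p = 0.125 by the exact permutation test.

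The top of the lists was richer still in unplaced peaks, a measure chosen after the data were seen. Among the 1% of peaks with the highest scores in a list were 36 and 35 unplaced peaks in Rb1L/L (6.57% and 6.81% of them) and 36 and 43 in WT (7.78% and 9.13%), against 0.928% to 0.980% of the placed autosomal peaks. The difference was 6.62 ± 1.18 percentage points (SD, n = 4 libraries; exact permutation p = 0.125). On 8_random it was 6 and 6 peaks of 59 and 58 in Rb1L/L and 8 and 9 of 38 and 49 in WT.

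Unplaced peaks were also wider, with median widths of 881.5 and 879.5 bp in Rb1L/L and 797 and 812 bp in WT, against 764 and 756 bp in Rb1L/L and 642 and 678 bp in WT on the placed autosomes. The log2 ratio of the medians was 0.25 ± 0.05 (SD, n = 4 libraries; exact permutation p = 0.125). It was 0.34 ± 0.04 on Un_random and 0.12 ± 0.07 on the numbered sequences, where it was smallest in Rb1L/L replicate 1, at 0.05. Greater width was not particular to these sequences. Each library's median was above its placed autosomal one also on the X (720 to 791 bp), Y_random (722 to 866 bp) and Y (832 to 938 bp). On X_random it was 688.5 to 823.5 bp, and in Rb1L/L replicate 1, at 761 bp, it was below.

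Peaks were sparser on the unplaced sequences. The part of each sequence up to its last peak, 10273094 bp over the 10 sequences, held 53.3 and 50.0 peaks per Mb in Rb1L/L and 45.1 and 45.8 per Mb in WT, against 116 and 118 per Mb in Rb1L/L and 79.0 and 93.4 per Mb in WT on the placed autosomes. The log2 ratio was -1.05 ± 0.18 (SD, n = 4 libraries; exact permutation p = 0.125). Peaks covered 6.60% and 6.37% of that length in Rb1L/L and 4.99% and 5.43% in WT, against 10.6% and 10.8% in Rb1L/L and 5.95% and 7.51% in WT on the placed autosomes, a difference of -2.86 ± 1.62 percentage points (exact permutation p = 0.125). Set against the last 5 Mb of each placed autosome instead, the log2 ratio of densities was -1.63 and the difference in covered length -7.88 percentage points. These lengths include unsequenced gaps whose size is not known here. The median distance from a peak to the next, which gaps touch less and which was added after the data were seen, was 2840 and 2645 bp in Rb1L/L and 3680 and 3212 bp in WT, against 2663 and 2537 bp in Rb1L/L and 4621 and 3473 bp in WT on the placed autosomes. Its log2 ratio, -0.07 ± 0.19 (exact permutation p = 0.625), was within the spread between libraries, and it changed sign, to 0.45, without the evenly spaced run of regions described below.

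Sharing was also read within 4 score classes of equal size in each list, after the data were seen. Over all scores, 48.4% and 50.8% of unplaced peaks in Rb1L/L and 62.2% and 60.1% in WT lay in a region of all 4 libraries, against 32.3% and 31.8% in Rb1L/L and 47.8% and 41.7% in WT for placed autosomal peaks. The difference was 16.97 ± 2.13 percentage points (SD, n = 4 libraries; exact permutation p = 0.125). In the highest class it was 11.7 ± 3.57 points (exact permutation p = 0.125), and in the class next to it 4.72 ± 3.79 points with 1 library the other way (exact permutation p = 0.25). In the second lowest class it was 11.1 ± 6.16 points (exact permutation p = 0.125). In the lowest it was 8.29 ± 6.69 points, with WT replicate 2 the other way (exact permutation p = 0.25). On the numbered sequences alone it was 6.52 ± 1.47 points over all scores, but the sign depended on the class. It was 5.08 ± 4.52 points in the highest class and -7.01 ± 3.74 points in the one next to it, below the placed autosomes in 4 of 4 libraries (exact permutation p = 0.125 for each). In the second lowest class it was 4.30 ± 7.12 points, with WT replicate 1 the other way (exact permutation p = 0.375). In the lowest it was 10.7 ± 10.5 points, with WT replicate 2 the other way (exact permutation p = 0.25). The differences of the 4 libraries share their regions, which were merged from all 4 lists, so they are not independent of each other. Nor do the classes set peaks of equal score side by side, since scores can still differ within a class. Unplaced peaks were the richer in the top 1%. The evenly spaced run described below was left in, and the classes were not read without it.

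**Figure D3:**
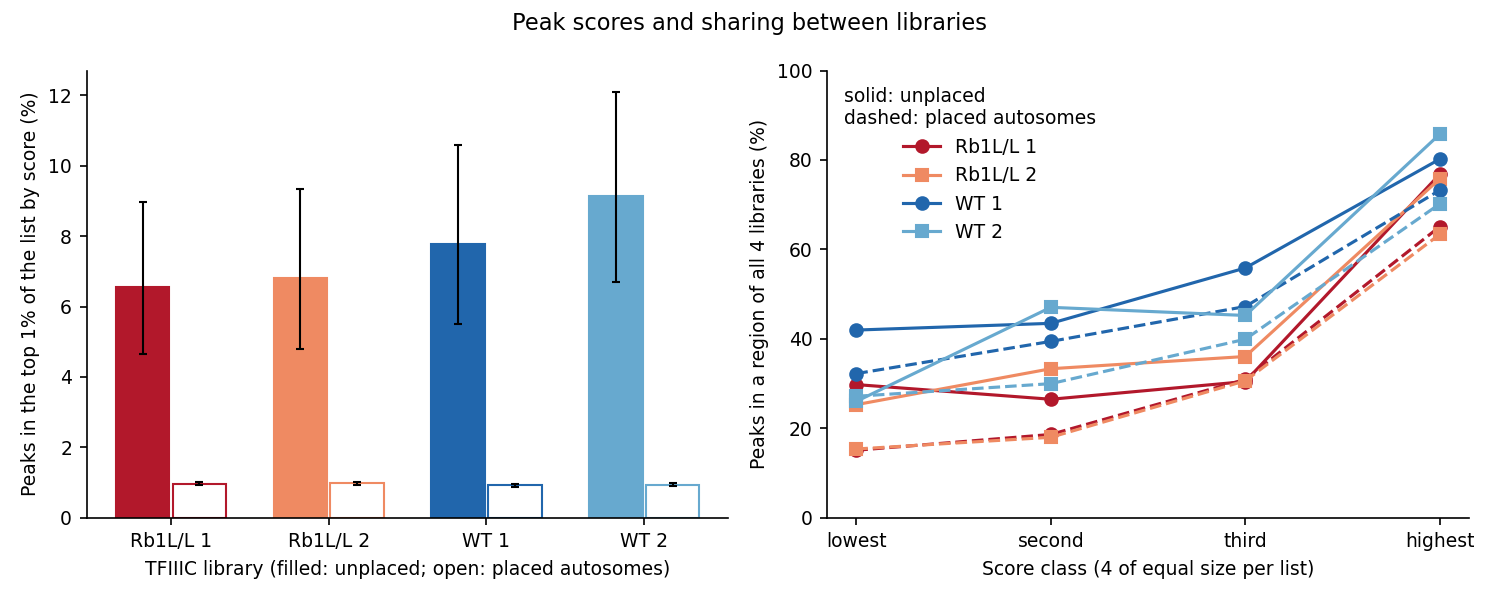
Left, percent of peaks among the top 1% of their list by score, for unplaced sequences (filled bars) and placed autosomes (open bars) in each library, with 95% exact binomial intervals; right, percent of peaks in a region of all 4 libraries in 4 score classes of equal size. The filled bars stand between 6.57% and 9.13% and the open ones below 1%, and in the highest class each solid line ends above the dashed line of its own library.

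A small group of wide regions held a larger share of the covered length than on the placed autosomes. Of the 733 unplaced regions 14 were wider than 5 kb (1.91%, against 0.585% of all regions), a threshold set after the data were seen, with 7 on Un_random, 6 on 8_random and 1 on 4_random. They made up 12.99% of the length of the unplaced regions, against 4.35% for the 2529 such regions on the placed autosomes. All 14 had a peak in every library, as had 2493 of the 2529, and merging favours this, because a region grows with each library that adds to it.

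The widest, Un_random:5559114-5573775, spanned 14662 bp and had scores of 3100 and 3100 in Rb1L/L and 1392 and 3100 in WT cells. It opened a cluster with Un_random:5580694-5585576, Un_random:5585700-5594639 and Un_random:5595073-5603128. On 8_random, 4 of the 6 wide regions lay close together, from 8_random:674471-686387 to 8_random:732397-741752. The wide region of 4_random, 4_random:124190-130198, had 3100 and 3100 in Rb1L/L and 2017 and 3093 in WT. The widest regions of 1_random (1_random:47843-52597, 4755 bp), 17_random (17_random:588265-591718, 3454 bp) and 9_random (9_random:47929-51101, 3173 bp) stayed under 5 kb. Those of 7_random (7_random:65395-66757, 1363 bp), 13_random (13_random:370731-371920, 1190 bp), 5_random (5_random:270402-271505, 1104 bp) and 3_random (3_random:39126-39816, 691 bp) were narrower still.

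The wide regions were called in different numbers of pieces. The 14 were split into 24 and 20 peaks in Rb1L/L and 31 and 30 in WT, while the length covered was 113724 and 112739 bp in Rb1L/L and 108255 and 111776 bp in WT. The 7 on Un_random held 11 and 7 peaks in Rb1L/L and 22 and 15 in WT, and the 6 on 8_random, where the libraries did not separate that way, 12 and 12 in Rb1L/L and 7 and 12 in WT. On Un_random:5595073-5603128 there were 1 and 1 peaks in Rb1L/L and 4 and 5 in WT, whereas 8_random:698515-703606 and 8_random:726399-731977 each had 2 and 2 in Rb1L/L and 1 and 1 in WT. On the placed autosomes the wide regions held 2.83 and 2.75 peaks each in Rb1L/L and 3.52 and 3.72 in WT, the same order of the genotypes as on Un_random. In the 250 kb of Un_random from 5500001 to 5750000, where 3 of the wide regions lie, there were 12 and 13 peaks in Rb1L/L and 25 and 21 in WT. In a limma fit of 9827 windows of 250 kb, this window had the largest fall among the unplaced ones with an unadjusted p under 0.05, a log2 difference of -1.29 ± 0.23 (SE; limma adjusted p = 0.387), and none of the windows passed.

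Along Un_random both replicate 1 libraries held more peaks than both replicate 2 libraries in 5 of 24 bins of 250 kb, which lay in a single stretch, and the opposite order held in 6 other bins, all outside it. From 750001 to 2250000 the replicate 1 libraries held 73 peaks in Rb1L/L and 86 in WT, and the replicate 2 libraries 38 in Rb1L/L and 36 in WT. Elsewhere on the sequence the numbers were 230 and 238 in Rb1L/L and 209 and 234 in WT. The stretch held 106 regions, of which 20 were shared by the replicate 1 libraries alone and 1 by the replicate 2 libraries alone. The highest of them, Un_random:1362809-1363992, had scores of 1035 in Rb1L/L replicate 1 and 496 in WT replicate 1.

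This order of libraries is that of Y_random and of the placed Y, which held 62 and 33 peaks in Rb1L/L and 77 and 26 in WT, and Un_random is assigned to no chromosome. Whether all of Un_random is autosomal is therefore not known. The stretch was chosen for its values and gets no test, and whether it belongs to the Y was not tested. Without it the log2 difference of the Un_random share, Rb1L/L minus WT, was -0.36, against -0.41 with it, so the lower share in Rb1L/L did not lie in the stretch alone.

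**Figure D4:**
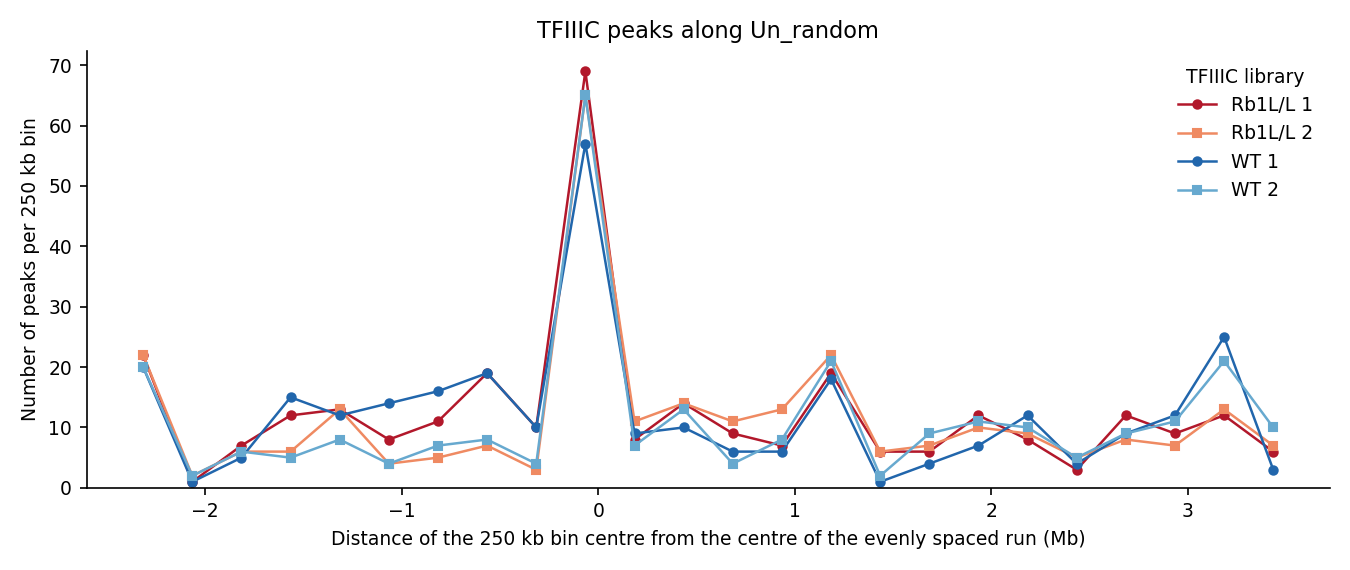
Number of TFIIIC peaks in each 250 kb bin along Un_random in the 4 libraries, placed by the distance in Mb of the bin's centre from the centre of the evenly spaced run. All libraries peak together at the run with 57 to 69 peaks; between about -1.6 and -0.3 Mb the replicate 1 libraries (circles) lie above the replicate 2 libraries (squares) in 5 of the 6 bins.

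The longest run of regions on an unplaced sequence was an evenly spaced one on Un_random, found after the data were seen by joining regions whose centres lay at most 4 kb apart. It held 66 regions over 144905 bp, Un_random:2368416-2513320, and 52 of them (78.8%) had a peak in all 4 libraries, against 17.8% of all regions. Their centres followed each other at a median of 2318 bp, with quartiles of 2054 and 2494 bp. Their median width was 1963.5 bp, against 810 bp for regions of the placed autosomes. Merging favours sharing in wide regions, because a region grows with each library that adds to it. The longest run on any other unplaced sequence, on 1_random, had 21 regions at a shorter median step of 1803 bp, with quartiles farther apart at 1301 and 2569 bp, and 5 of the 21 were in all 4 libraries.

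Peaks were found in 62 and 65 of the 66 regions in Rb1L/L and in 52 and 58 in WT. They covered 64.2% and 72.2% of the run in Rb1L/L and 39.1% and 53.7% in WT. The highest score of a library in each region had a median of 733 and 1202 in Rb1L/L and 333 and 685 in WT. The genotypes did not overlap in any of these measures. Peak numbers were 72 and 72 in Rb1L/L and 60 and 69 in WT. Set against the length of the lists the direction was the other one. The 250 kb window from 2250001 to 2500000, which held most of the run, had a lower share in Rb1L/L. Its log2 difference was -0.31 ± 0.11 (SE; limma adjusted p = 0.501). The share of regions with a peak and the covered length separated the genotypes on the placed autosomes too. There 62.5% and 63.6% of regions had a peak in Rb1L/L and 41.7% and 48.9% in WT, and the covered length was 10.6% and 10.8% of the length in Rb1L/L and 5.95% and 7.51% in WT. The median scores of placed autosomal peaks overlapped between the genotypes, at 211 and 283 in Rb1L/L and 172 and 289 in WT. Those medians are over single peaks and not over regions, so they are not the same measure as in the run. No test was made for the run itself, which was chosen after its values were seen. By the lowest score over the 4 libraries the highest region of the run was Un_random:2439499-2441865, with 968 and 2425 in Rb1L/L and 717 and 927 in WT, followed by Un_random:2412703-2415062, with 1272 and 1857 in Rb1L/L and 697 and 1886 in WT.

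No region of the run stood at the ceiling of the scores in any library, whereas 4 to 11 of the 14 wide regions did, depending on the library. The run weighs on the counts of shared regions: without it the share of regions in all 4 libraries was 31.7% on Un_random (101 of 319) and 27.3% over the unplaced sequences (182 of 667). The higher scores did not rest on it, since without it the difference in median percentile from the placed autosomes was 14.6 points and that in the top 1% was 7.71 percentage points.

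Placed autosomes held 86 runs of at least 50 regions by the same rule, and the median share of their regions in all 4 libraries was 21.4%. A single one resembled the run on Un_random, on chromosome 6 from 114440332 to 114587501, with 53 of 65 regions in all 4 libraries (81.5%) at a median step of 2383.5 bp; the next highest share was 43.1%. The medians of its highest scores per region were 749 and 1217 in Rb1L/L and 338 and 731 in WT, in the same order of libraries as on Un_random. Whether the runs have sequence in common was not tested, since no mm9 sequence was used here.

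**Figure D5:**
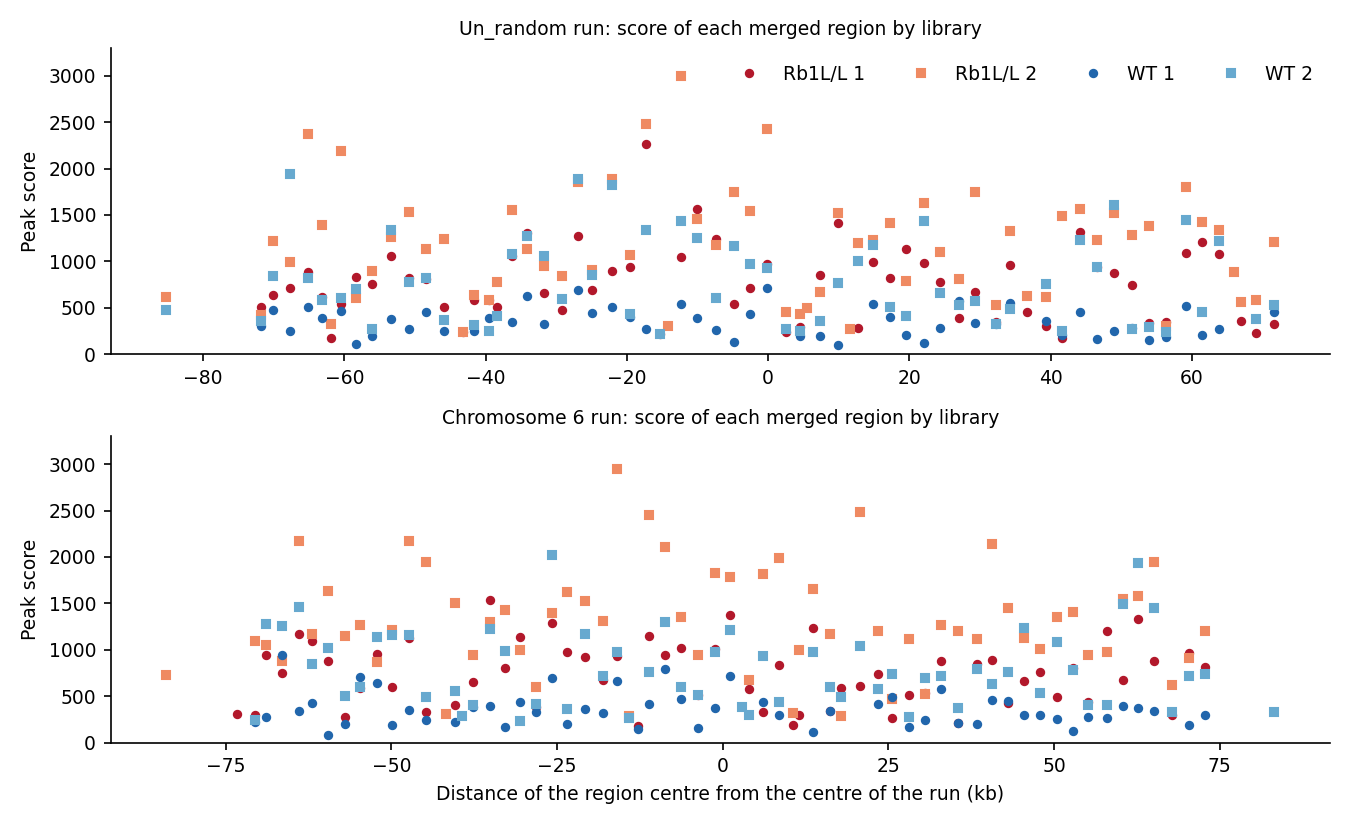
Score of each merged region in each library along the evenly spaced run of Un_random (top) and along the run on chromosome 6 (bottom), by the distance in kb of the region's centre from the centre of the run. In both panels the points spread over about the same length, and the medians lie lowest in WT replicate 1 (333 and 338) and highest in Rb1L/L replicate 2 (1202 and 1217).

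The other antibodies of the series left these sequences empty. The 8 lists for H3K27me3, a mark of Polycomb-silenced chromatin, and for the condensin II subunits CAP-D3 and CAP-H2 held 287764 peaks. Of these, 49 lay on the placed Y and 0 on a sequence with _random in its name. As a result 0 of the 733 unplaced TFIIIC regions overlapped a peak of these antibodies, against 63457 of 423013 regions on the placed autosomes (15.0%). These cells were fixed with EGS before formaldehyde, unlike those for TFIIIC. The sources used here do not state whether reads of these libraries were aligned to the unplaced sequences, so this 0 cannot be read as absence of the proteins. Pooled over the 8 lists, 0 peaks allow a share of up to 0.00104%. That limit is 3 counts over all peaks, and it takes peaks of different antibodies and genotypes as independent.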

How the data were processed

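TFIIIC was immunoprecipitated from 2 Rb1L/L and 2 WT fibroblast samples; the 8 inputs of the 20 samples have no list. The authors deposited 1 list per library, called separately, with position and a score for each peak (minimum 50.0 to 50.2 in the TFIIIC lists). Bowtie2 2.3.0, MACS 1.4.0rc2 and mm9 are named in the submitters' processing notes, without settings. Read depth is not given, and a deeper library tends to give more, wider and higher peaks. Positions are printed 1-based; 1 peak that began before its sequence was set to start at 1.

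Peaks of the 4 lists were merged at 1 bp overlap. Numbers, shares, widths, densities and score percentiles were compared by two-sided exact permutation tests over libraries, with Python 3.11.15 and SciPy 1.17.1. Shares per feature (pseudocount of 0.5 peaks, mean of at least 5 peaks) were fitted with limma 3.58.1 with a trend in R 4.3.3, Benjamini-Hochberg over all features, threshold 0.05. The simulated data on which this fit was tried had no difference by replicate number, so they do not stand for these libraries. Named regions are the 8 of all 4 libraries and the 5 of each genotype alone with the highest minimum score, and the widest of each sequence; regions of the run, the replicate 1 stretch and the other wide regions were chosen after their values were seen. The members and rules were chosen with earlier results of these data known. Alternatives were score minimum, covered length, lists of equal length, merging, pseudocount, filter, window, centring, leaving out Un_random, the run or a library, and a replicate block. Sequences, genes and repeats of these regions were not analysed here.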

Additional observations from a re-analysis of the deposited data

How the results depend on the processing

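The limits are the unknown read depth, 2 libraries per genotype, unknown gaps in the sequences and unknown handling of reads that match several places. The log2 ratio of peak numbers was between 0.14 and 0.23 with a library left out and 0.18 with the replicate block (exact sign-flip p = 0.5); with lists of equal length it was -0.078. The log2 share was between -0.38 and -0.14 with a library left out and -0.26 with the block (exact sign-flip p = 0.5). Under the block 0 features were called by limma (300 with an unadjusted p under 0.05), and the lowest adjusted p of an unplaced sequence was 0.222. The labels do not say that equal numbers pair the libraries. Deviations of same-numbered libraries correlated at 0.87 over all features, 0.29 over placed autosomal windows and 0.69 over the 9 unplaced sequences, values that with 2 libraries per genotype come as a single pair of deviations. With a library left out, limma called 0 to 1 unplaced sequences, the 1 being Un_random without WT replicate 2; without WT replicate 1 it called 8 features and 0 unplaced sequences. The share of regions in all libraries was 23.1% when a library had to cover at least 50% of the region, 23.3% without Un_random, 27.3% without the run and 35.7% to 45.5% over 3 libraries in place of 4. With a library left out there were 671 to 704 unplaced regions. Those of every remaining Rb1L/L library and no WT library were 80 to 121, and the WT counterpart 23 to 82. Regions of both Rb1L/L libraries alone were 26 of 505 with gaps of up to 1 kb bridged. Regions of both WT libraries alone were 24 of 652 with lists of equal length. Shares over all regions of the genome under these settings are not given here. Scores, widths, densities and the top 1% kept their direction in each alternative run. The log2 ratio of neighbour distances became 0.55 against the last 5 Mb of each autosome, 0.30 without Un_random, 0.45 without the run and 0.013 without WT replicate 1 (range with a library left out -0.13 to 0.013). In 17 of 90 alternatives a single sequence changed sign in limma, with adjusted p-values of 0.857 or more: 13_random was -0.032 with a pseudocount of 2 and -0.071 with scores of at least 100, 17_random -0.024, -0.0039 and, centred on the median feature, -0.0023, and 8_random and 9_random were 0.044 and 0.032 with scores of at least 100. With a library left out the ranges were -0.050 to 0.085 for 13_random, -0.14 to 0.16 for 17_random, -1.41 to 0.56 for 5_random, -0.43 to 0.16 for 7_random, -0.059 to 0.043 for 8_random and -0.15 to 0.058 for 9_random.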
